A study of Homo sapiens with 21 samples.

Results

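Regions bound by estrogen receptor beta (ER-beta, the product of ESR2) after estradiol were compared with regions bound after ethanol vehicle alone. The members were all enriched regions on chromosomes 1 to 22 and X in the estradiol list (26861 regions) and in the vehicle list (2902 regions), 29763 of the 39866 records deposited for the series. A region was called shared when it overlapped a region of the other list by at least 1 bp, and estradiol only or vehicle only when it did not. The cells were MDA-MB-231, a triple-negative breast cancer line, carrying a doxycycline-inducible, Flag-tagged ER-beta, and chromatin was precipitated with the M2 antibody against Flag. Every group received doxycycline at 100 ng/ml for 24 h, so the vehicle cells held the induced receptor as well, and then ethanol or 1 nM estradiol for 3 h in medium with charcoal-stripped serum. The labels give 4 precipitated and 3 input libraries for each of these treatments, 14 of the 21 libraries of the series, which also holds the ER-beta agonist LY500307. The receptor in these cells is an introduced copy in a line that is negative for ER-alpha, and whether the line is a single clone is not stated in the sources used here.

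The authors deposited 1 list per treatment, read here as a pool of its libraries. With 1 pool per treatment there is no replicate error and no test between the treatments, and 95% Wilson intervals on shares cover counting error only. Fold enrichment is the authors' ratio of precipitated signal over local background at the summit of a region. The pools were scaled separately, so folds were ranked within a list (rank 1 is the highest fold, and a percentile of 100 is the top of the list) and are set side by side across lists without measuring a change. The number of reads per library is unknown from these lists. The background pileup that accounted for the most records of a list, recovered from its deposited fold and p-values, was 1.00 for estradiol and 1.8 for vehicle. All positions are hg38, counted from 1, on the plus strand.

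Estrogen receptors are transcription factors that are activated by ligand and bind DNA as dimers. Their classical site is the estrogen response element (ERE), a palindrome of inverted arms with a spacer between them, and they also reach DNA through other factors such as AP-1 and SP1. In breast epithelium ER-beta is known mainly for restraining growth, in contrast to ER-alpha, and it can bind DNA and act without added hormone.

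The following sequences show what lay under the strongest regions of each class. An ERE was counted when the letters GGTCANNNTGACC occurred with at most 1 mismatch in the 10 fixed bases, in the 201 bp around a summit. It reads the same on both strands. The arms of each ERE are in capitals. FOXK1 and MANEAL held a perfect ERE in shared regions. The SPIN1 ERE, also in a shared region, carried G10C, counted from 1 at the left end of the ERE with the consensus base given before the position. IGFBP4 carried A11C and AMOTL2 carried A5C in shared regions, and INHBB carried A5G in an estradiol-only region. The summit named for AMOTL2 lay inside a non-coding gene, 44.1 kb downstream of the start of AMOTL2.
FOXK1, intron 1 (chr7:4683501-4683541): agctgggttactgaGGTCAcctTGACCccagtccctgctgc
MANEAL, promoter (chr1:37793475-37793515): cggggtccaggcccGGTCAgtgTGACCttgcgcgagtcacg
SPIN1, intergenic (chr9:88344702-88344742): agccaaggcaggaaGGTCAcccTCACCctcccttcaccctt
IGFBP4, intron 1 (chr17:40448854-40448894): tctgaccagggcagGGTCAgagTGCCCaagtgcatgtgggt
AMOTL2, non-coding gene nearby (chr3:134327708-134327748): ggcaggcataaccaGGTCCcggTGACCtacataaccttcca
INHBB, intergenic (chr2:120314138-120314178): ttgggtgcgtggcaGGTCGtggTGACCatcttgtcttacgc

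Other strong summits held no ERE within 100 bp. In the 41 bases centred on the summit, capitals mark a single ERE arm, AGGTCA or its complement TGACCT. SYNJ2 was taken from the shared regions, MITF and PITPNM2 from the estradiol-only regions, and coding exons of ESR2 and HDAC7 from the vehicle-only regions. Only the SYNJ2 sequence held an arm in the bases shown. The strong shared summits near KRT80 and GPC1, for example, held none there, so these sequences do not contrast the classes.
SYNJ2, intron 7 (chr6:158061196-158061236): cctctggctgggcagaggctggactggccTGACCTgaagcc
MITF, intron 1 (chr3:69739784-69739824): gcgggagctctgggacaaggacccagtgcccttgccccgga
PITPNM2, intron 2 (chr12:123060413-123060453): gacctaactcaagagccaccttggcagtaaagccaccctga
ESR2, exon 2 (chr14:64282791-64282831): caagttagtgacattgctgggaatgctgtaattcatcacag
HDAC7, exon 25 (chr12:47784137-47784177): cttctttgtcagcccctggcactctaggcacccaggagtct

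Most vehicle regions overlapped an estradiol region, and few estradiol regions overlapped a vehicle region. Of 2902 vehicle regions, 2528 (87.1%, 85.8 to 88.3) were shared, and of 26861 estradiol regions, 2488 (9.26%, 8.92 to 9.62) were. With at least 50% of both regions covered, 44.3% of vehicle and 4.79% of estradiol regions were shared. Against only the strongest estradiol regions, as many as there were vehicle regions, 48.3% of vehicle regions were shared, and 47.1% of those estradiol regions were. There were 9.26 estradiol regions for each vehicle region, and they covered 9.93 Mb against 0.870 Mb for vehicle. The remaining 24373 estradiol regions and 374 vehicle regions had no partner. The overlaps were mostly 1 to 1: 25 vehicle regions met 2 or more estradiol regions and 64 estradiol regions met 2 or more vehicle regions. As a side note, 6931 of the estradiol-only regions (28.4%) and 145 of the vehicle-only regions (38.8%) overlapped an LY500307 region. The shares for shared regions were not tabulated, so neither value can be called high or low.

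Sharing rose steeply at the top of the estradiol list. All of the 100 estradiol regions with the highest fold were shared, as were 94.6% of the 500 highest, 82.6% of the 1000 highest and 60.9% of the 2000 highest. By decile of estradiol fold the shared part was 49.9% (48.0 to 51.8) in the highest decile and 6.81% (5.92 to 7.83) in the decile below it. It was lowest in the seventh decile, at 2.49% (1.97 to 3.16), and was 5.88% (5.05 to 6.83) in the lowest decile, so the share did not fall steadily with fold. In the vehicle list the shared part ran from 75.5% in the second decile to 98.6% in the ninth. The best-ranked estradiol-only region stood at rank 251, and the best-ranked vehicle-only region at rank 23.

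**Figure D1:**
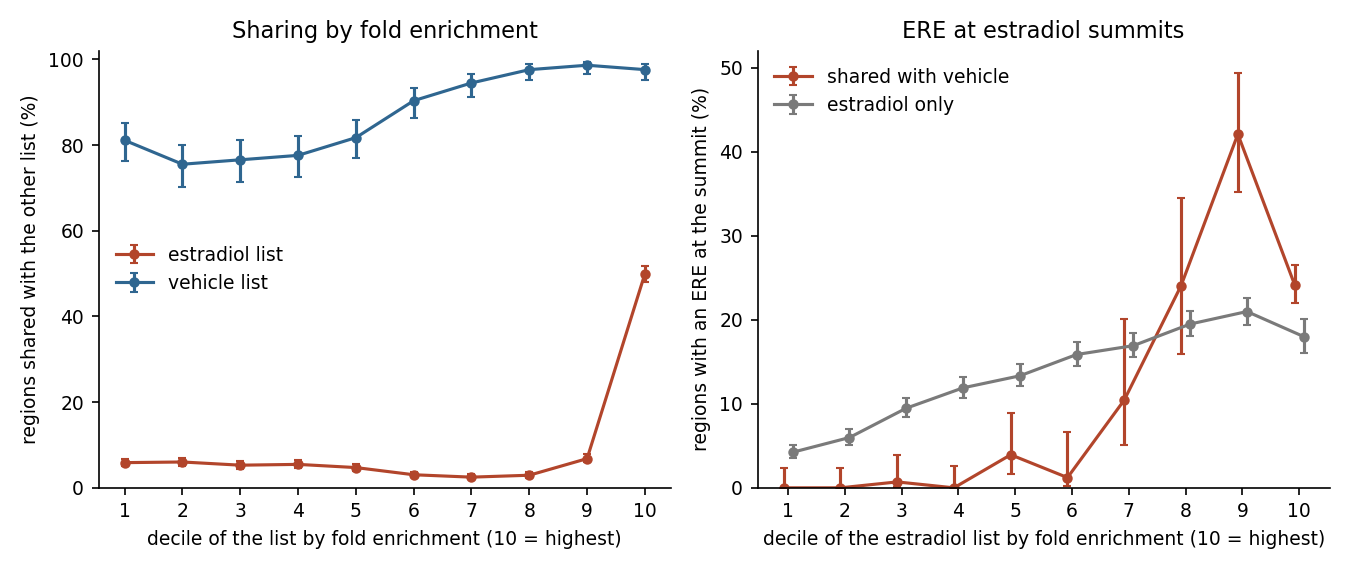
Left, percent of regions shared with the other list (vertical axis) by decile of fold enrichment in the own list (horizontal axis), for the estradiol list (red) and the vehicle list (blue). Right, percent of estradiol regions with an ERE at the summit by the same deciles, for shared (red) and estradiol-only regions (grey). Bars are 95% Wilson intervals. Sharing of estradiol regions reached 49.9% in the highest decile, and shared regions held an ERE at 42.1% in the ninth decile and at 0% in the lowest.

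Shared regions fell into a strong group with receptor motifs and a weak group almost without an ERE. In the lowest decile of estradiol fold 0 of 158 shared regions held an ERE, with an upper limit of 2.37%, against 4.23% (3.51 to 5.09) of the estradiol-only regions of that decile. In the second decile it was 0 of 162 (up to 2.32%) against 5.98%, and in the sixth 1.22% (0.216 to 6.59) against 15.9% (14.5 to 17.3). The order was the opposite in the ninth decile, where 42.1% (35.2 to 49.3) of shared and 21.0% (19.4 to 22.6) of estradiol-only regions held one. In the highest decile the shares were 24.2% (21.9 to 26.5) and 18.0% (16.0 to 20.1). Promoters held 30.4% of shared and 32.9% of estradiol-only regions in the lowest decile, 35.4% and 13.2% in the fifth, and 10.6% and 9.37% in the highest, so the weakest regions were often at promoters whether shared or not. Shared regions with an ERE had a median estradiol fold of 70.8. Those with an ERE arm but no ERE had a median of 86.5, and those with an AP-1 element but neither of these had 88.6. The 1243 shared regions with none of the 3 motifs, 50% of the class, had a median fold of 8.94.

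The strongest shared regions lay at promoters, in introns and far from genes alike. The highest estradiol fold, 196, was at chr19:1512727-1513914, 123 bp upstream of ADAMTSL5, whose product is a secreted, ADAMTS-like protein. The vehicle region there had a fold of 43.3 and rank 22. A region at chr9:88344394-88345066, 43.7 kb upstream of SPIN1, which encodes a reader of histone methylation, had an estradiol fold of 192 and a vehicle fold of 35.8 (rank 47). The region with the perfect ERE 377 bp upstream of MANEAL, at chr1:37793146-37794000, had folds of 188 and 44.3. The region with the perfect ERE in intron 1 of FOXK1, a forkhead repressor gene (chr7:4682522-4684274), had an estradiol fold of 187 at rank 4, while its vehicle fold of 20.8 stood only at rank 184. All 12 highest estradiol regions had vehicle partners, the farthest of them down the vehicle list being the FOXK1 one at rank 184.

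The other high estradiol regions included one at a classical estrogen target, IGFBP4, which encodes a binding protein of insulin-like growth factors. In its intron 1 (chr17:40448531-40449135) the folds were 183 with estradiol and 30.8 with vehicle. Exon 4 of CSF2RB, the common beta chain of the GM-CSF, interleukin-3 and interleukin-5 receptors, held a region with an estradiol fold of 187 and a vehicle fold of 40.7. The promoter of PTMA, which encodes the chromatin-associated protein prothymosin alpha, had 183 and 31.3, and the promoter of RCOR3, a CoREST family corepressor gene, had 186 and 29.9. A region 43.1 kb downstream of the KRT80 keratin gene had 186 and 27.6. A region 22.9 kb downstream of MMP17, a membrane-type matrix metalloproteinase gene, had 184 and 46.6. Of these 12 regions, 6 held an ERE.

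The regions that led the vehicle list lay mostly outside promoters, and each was also strong with estradiol. The highest vehicle fold, 75.9, was 10.6 kb upstream of LAPTM4B, a lysosomal membrane protein gene, and its estradiol partner had a fold of 114 at rank 400. A region 66.1 kb upstream of GPC1, the proteoglycan glypican 1 gene (chr2:240369299-240369768), had a vehicle fold of 73.6 and an estradiol fold of 180.0 at rank 14. A region 27.7 kb upstream of NTNG2, a netrin-G gene, had 69.7 and 175. Intron 7 of SYNJ2, an inositol phosphatase gene (chr6:158060770-158061422), had 69.0 and 173. A region 120.0 kb upstream of SLC45A1, a sugar transporter gene, had 65.6 and 97.1, which was rank 661 with estradiol. Regions inside FOXK2 and in intron 2 of MYO18A had vehicle folds of 63.9 and 63.1 and estradiol folds of 144 and 179. A region with an ERE 44.1 kb downstream of AMOTL2, which encodes an angiomotin-like YAP-binding protein, had a vehicle fold of 59.6 and an estradiol fold of 167. The lowest estradiol rank among the partners of these 12 regions was 725, near LSM3. Of the 12, only the regions near LAPTM4B and AMOTL2 held an ERE.

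The order of the shared regions was similar in both lists. Over 2528 pairs of a vehicle region with the estradiol region it overlapped most, Spearman's rho of fold was 0.679 and Pearson's r of log2 fold was 0.61. This is a description over sites, which share their 2 pools and local sequence and are not replicates. Pairs in the highest quartile of the vehicle list (710 pairs) had a median estradiol fold of 109, and for 90.4% of them the estradiol fold was in the top decile. In the lowest quartile (572 pairs) the median estradiol fold was 7.87, and 60.8% were below the median of the estradiol list. The summits of a pair lay a median of 20 bp apart. Estradiol regions of the pairs were wider, with a median of 549 bp against 281 bp.

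**Figure D2:**
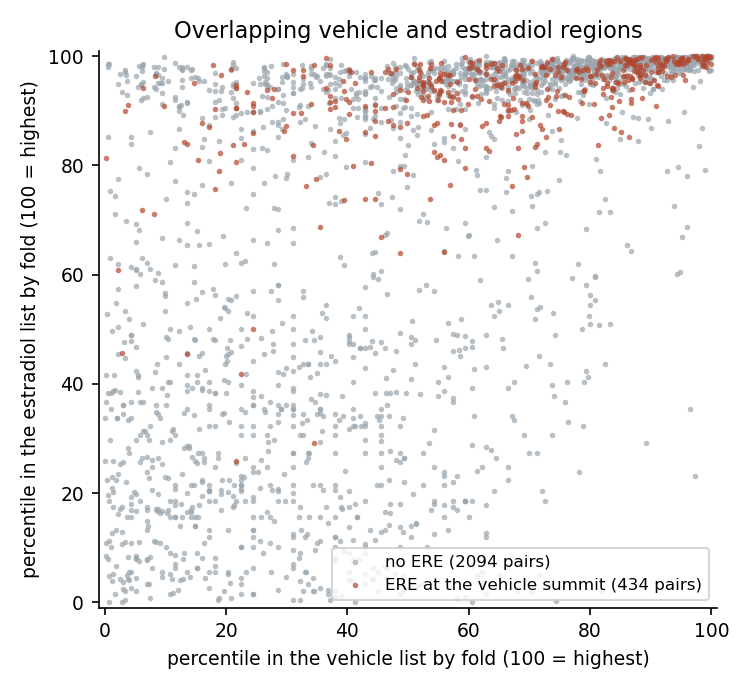
Each point is an overlapping pair, placed by the percentile of fold in the vehicle list (horizontal axis) and in the estradiol list (vertical axis), where 100 is the highest. Red points are the 434 pairs with an ERE at the vehicle summit and grey points are the 2094 pairs without. Pairs with an ERE lie mainly in the upper band, while the lower left is filled by pairs without one.

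Some pairs stood far apart in the order of the lists. The median percentile of paired regions was 92.4 by estradiol fold and 55.0 by vehicle fold, in lists of unequal length, so a gap upwards was possible for more pairs than a gap downwards, and the numbers in each direction are not compared. At 343 pairs (13.6%) the estradiol percentile was at least 50 points above the vehicle percentile, and at 25 pairs (0.989%) it was at least 50 points below. The first set had an ERE at 20.1% of estradiol summits and a median GC content of 58.7% at the vehicle summit. Over all 2528 pairs an ERE was at 17.2% of vehicle summits, and the median GC content was 58.7% too. The second set, of only 25 pairs, had an ERE at 0% and a median GC content of 44.3%. Its median estradiol fold was 4.88, in the range where shared regions rarely held an ERE. At 31 of the 343, the estradiol region also met a further vehicle region. The widest gap, in intron 1 of ACTN1, the alpha-actinin 1 gene, was of this kind. A vehicle fold of 3.48 (rank 2889) was paired there with an estradiol fold of 114 (rank 407), with summits 1037 bp apart, while the same estradiol region also met vehicle regions with folds of 13.8 and 10.8, the former with its summit 7 bp away. Likewise, a region 513 kb upstream of JARID2, whose product is a Polycomb cofactor, had a vehicle fold of 3.55 and an estradiol fold of 104 with summits 491 bp apart, and a stronger vehicle region with a fold of 13.9 lay 5 bp from the same estradiol summit. These 2 pairs are therefore not sites that were low with vehicle. Intron 1 of ARRB1, the beta-arrestin 1 gene, had a vehicle fold of 3.66 and an estradiol fold of 116, with summits at the same base. The promoter of SERPINB9, a granzyme B inhibitor gene, had 4.12 and 86.6. A region 36.7 kb upstream of EPC2 had 4.21 and 94.8. Regions near BZW1, GHRH and SSBP3 completed the 8 widest gaps of this kind.

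The 8 widest gaps in the opposite direction lay at weak estradiol regions, with folds of up to 6.35. A region 176 kb upstream of GLRA1, a glycine receptor gene, stood at vehicle rank 523 with a fold of 12.2 and at estradiol rank 26269 with a fold of 4.31. Exon 13 of HDAC7 had a vehicle fold of 30.4 (rank 77) and an estradiol fold of 6.35 (rank 20602). A region 13.6 kb upstream of BSX, a homeobox gene, had 9.96 and 3.6. The others lay near VMA21, ZFPM2, ZNF33B, FBN2 and FLRT2, with vehicle folds of 8.73 to 9.80 and estradiol folds of 4.24 to 4.88. None of these 8 regions held an ERE, and apart from HDAC7 their GC content was 36.3% to 44.3%.

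Estradiol-only regions formed the bulk of the list and were generally weaker than the shared ones. Their median fold was 9.12, with the middle 50% of regions between 6.50 and 17.0, against 52.4 (8.05 to 95.9) for shared estradiol regions. Of the estradiol-only regions, 62.1% had no vehicle summit within 100 kb, and 6.77% had one within 5 kb. The vehicle list is short and the same shares at random positions were not counted, so these values do not show regions far from vehicle signal. The strongest was at chr2:120313786-120314356, 32.1 kb upstream of INHBB, which encodes the activin beta-B subunit, with a fold of 129 and an ERE. The nearest vehicle summit was 151 kb away. The promoter of AKAP1, a mitochondrial anchor of protein kinase A, had a fold of 127, as did a region in ARMC6. A region in the first intron of the nociceptin receptor gene OPRL1 had 123, and intron 1 of MITF, a melanocyte transcription factor gene (chr3:69739385-69740099), had 121, with the nearest vehicle summit 361 kb away.

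The other 7 of the 12 highest estradiol-only regions had folds of 116 to 124. Intron 1 of TBXA2R, the thromboxane A2 receptor gene, had a fold of 119. The promoter of ATG9A, which encodes an autophagy scramblase, had 116, with the nearest vehicle summit 945 kb away. A region inside IQSEC1, an ARF exchange factor gene, had 118.0. Regions near ZBTB45 (124), MARCKSL1 (121), PITPNM2 (119) and ARMC7 (118) completed the 12 highest. A vehicle summit was 1.08 kb away at ZBTB45, 1.92 kb at MARCKSL1, 2.66 kb at PITPNM2 and 4.02 kb at ARMC6, so these neighbourhoods were not free of vehicle signal. Of the 12, the INHBB and ARMC6 regions held an ERE.

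Vehicle-only regions were few, weak and almost without an ERE. Their median fold was 5.81 against 7.43 for the shared vehicle regions, and their median rank was 2061 of 2902. Only 1 of 374 (0.267%, 0.0472 to 1.5) held an ERE, in a region with a fold of 5.66 that lay 52.3 kb from MTPN. This share was the same as in the windows 2 kb downstream (1 of 374). The strongest members lay on coding exons of 2 genes. The vehicle region at exon 2 of ESR2, chr14:64282557-64283015, had a fold of 42.5 and rank 23, and that at exon 5 of ESR2, chr14:64260373-64260819, had 23.3. Regions on HDAC7, a class IIa histone deacetylase gene, had folds of up to 22.8 in this class, and 11 of the 12 highest vehicle-only regions were on these genes. The other of the 12, in XYLB, had a fold of 10.8 at rank 641.

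At ESR2 the vehicle regions followed the exons. Of the 8 coding exons, 7 carried a vehicle region, and all 7 vehicle regions in the gene lay on coding exons, which make up 2.41% of the transcript's span. At exon 2 the region ran 67 bp and 30 bp past the ends of the coding sequence, and at the other exons it ran from 4 to 76 bp past. Their folds ran from 6.58 at exon 6 to 42.5 at exon 2, and exon 4, with 117 coding bases, carried none. Of the 7 regions, the exon 8 one held an ERE. In the estradiol list only exon 8 carried a region, with a fold of 31.9 at rank 3972, against a vehicle fold of 14.4 at rank 393. The cells carry an introduced ER-beta coding sequence under every treatment, and reads from it cannot be told apart from reads of the genomic exons in these lists.

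At HDAC7 vehicle regions again lay on coding exons. Of 26 coding exons, 21 carried 1 of 13 vehicle regions, with folds from 6.86 to 30.4. These exons were spread over the whole gene from exon 3 to exon 25, and none of the 13 regions held an ERE. In the estradiol list exons 11 and 13 carried regions with folds of 7.50 and 6.35, and in the LY500307 list 15 of the exons carried one. The labels name no HDAC7 construct, and the source of these reads was not tested. No other gene had more than 2 coding exons with a vehicle region, and 16 genes had 2 or more. In the estradiol list no gene had more than 5, the most being AJUBA, COL15A1, COMTD1, PLA2G4D, PUSL1 and STAB1. Without the 17 regions at ESR2 and HDAC7, the vehicle-only class had a median fold of 5.77 and a highest fold of 10.8, its share on coding exons was 3.92% and not 7.75%, and its share with an LY500307 overlap was 38.4%.

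**Figure D3:**
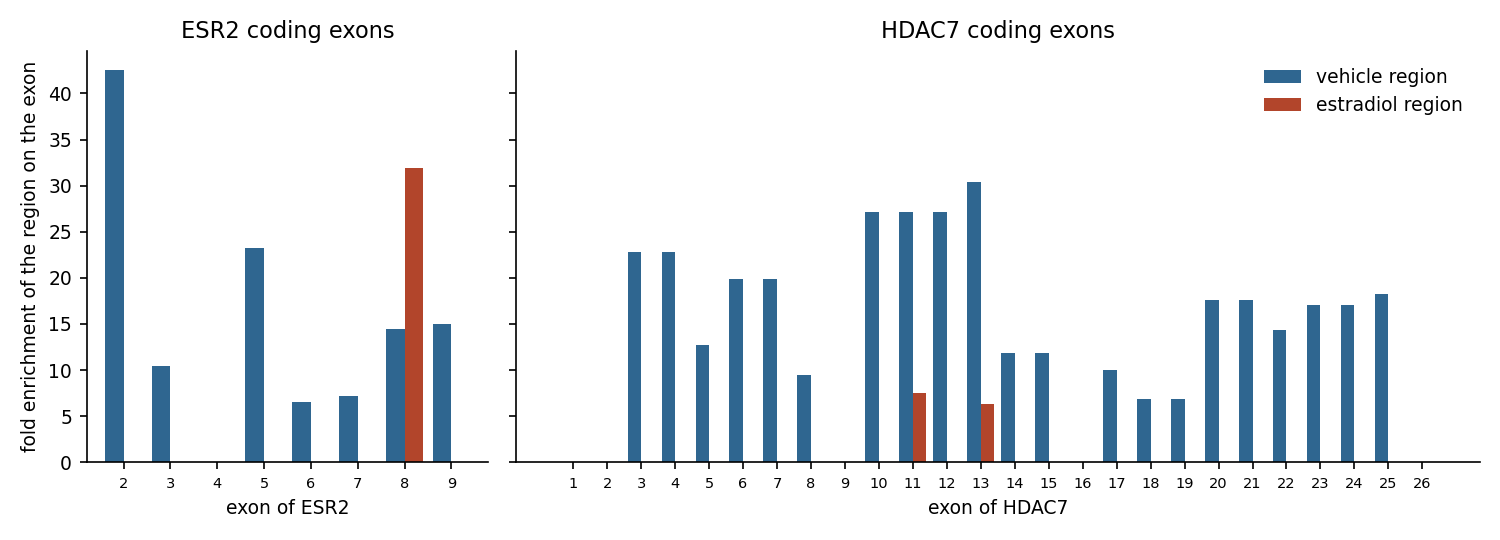
Fold enrichment of the region that overlaps each coding exon of ESR2 (left) and HDAC7 (right), in the vehicle list (blue) and the estradiol list (red), by exon number. A region that spans neighbouring exons is drawn at each of them, and an exon with no bar carried no region. Vehicle bars reach 42.5 at exon 2 of ESR2 and 30.4 at exon 13 of HDAC7, and estradiol bars stand at 3 exons.

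Shared regions lay nearer to genes and in DNA richer in GC than regions of a single list. The median distance from the summit to the nearest transcription start site (TSS) of a protein-coding transcript was 5.62 kb for shared estradiol regions, 12.3 kb for estradiol-only regions and 16.3 kb for vehicle-only regions. Within 1 kb of a TSS lay 37.6% (35.7 to 39.5) of shared, 27.3% (26.7 to 27.9) of estradiol-only and 31.3% (26.8 to 36.2) of vehicle-only summits. Beyond 100 kb lay 12.4%, 13.9% and 28.9% (24.5 to 33.7). Promoters, taken as 1000 bp upstream to 100 bp downstream of a TSS, held 19.7% (18.2 to 21.3) of shared, 16.1% (15.6 to 16.5) of estradiol-only and 15.0% (11.7 to 18.9) of vehicle-only summits. Introns held 42.1%, 41.9% and 36.9%, and intergenic DNA 19.9%, 24.2% and 24.6%. The median GC content of the 201 bp around the summit was 58.2%, 54.2% and 46.3%, against 46.8%, 46.3% and 41.8% in windows 2 kb downstream. Promoter shares moved with strength: in the estradiol list they were 32.7% in the lowest decile of fold, 7.86% in the ninth and 9.98% in the highest.

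Receptor motifs marked shared and estradiol-only summits, but not vehicle-only ones. An ERE was present at 17.4% (16.0 to 19.0) of shared estradiol summits, 13.4% (13 to 13.9) of estradiol-only summits and 0.267% of vehicle-only summits. In windows of the same width 2 kb downstream the shares were 0.844%, 0.624% and 0.267%, and in 201-bp windows centred on 19625 coding TSSs it was 0.403%. The ERE lay close to the summit, at a median of 11 bp in shared and 16 bp in estradiol-only regions. Within 25 bp lay 87.1% of the EREs of shared and 70.9% of those of estradiol-only regions. A single arm, AGGTCA on either strand, which also occurs inside many EREs, was at 40% (38.1 to 41.9), 45.2% (44.6 to 45.8) and 12.6% (9.58 to 16.3) of summits. Downstream it was at 16.4%, 15.2% and 12.8%, and at TSS windows it was at 6.77%. The vehicle-only value thus lay within counting error of its downstream windows.

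The motifs of other factors were sought without a mismatch on both strands, and a match is a description of letters and not of binding. AP-1 elements (TGACTCA), bound by FOS and JUN dimers, were at 12% (10.8 to 13.4) of shared, 14% (13.6 to 14.5) of estradiol-only and 2.14% (1.09 to 4.16) of vehicle-only summits, against 3.54%, 3.42% and 3.48% downstream. SP1 elements (GGGCGG), common at GC-rich promoters, were at 27.3% (25.5 to 29.0), 20.2% (19.7 to 20.7) and 17.6% (14.1 to 21.8), against 6.19%, 6.33% and 2.67% downstream and 54.0% of TSS windows. TEAD elements (GGAATG), of the factors that carry YAP to DNA, were at 16.0%, 16.3% and 11.5%, against 11.3%, 10.6% and 11.5% downstream. GATA elements (AGATAA) were at 6.87% (5.94 to 7.94), 8.37% and 14.2% (11 to 18.1), and at 10.5%, 11% and 13.4% downstream. The GC content of the summits differed between the classes, and its part in the GATA and SP1 shares was not tested. FOXA elements (TGTTTAC) were at 1.49%, 1.69% and 2.14% of summits and at 2.93%, 2.54% and 2.67% downstream. The remaining motifs were ETS (CCGGAAG), NFY (CCAAT), RUNX (TGTGGT), E-box (CACGTG) and CTCF (AGGGGGC), which were at 1.07% to 18.7% of the summits of a class and at 5.64% to 25.3% of TSS windows. NFY lay below its downstream windows (15.4%, 16.3% and 18.7% against 22.9%, 23.3% and 25.9%). CTCF lay above them (6.35%, 5.80% and 6.15% against 2.69%, 3.47% and 1.60%), as did ETS and E-box, while RUNX went both ways. For these motifs, the vehicle-only intervals overlapped except for CTCF. In TSS windows CTCF was at 13.1%, ETS at 11.2% and E-box at 5.64%, above the summits of each class. The part of GC content in these shares was not tested either.

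**Figure D4:**
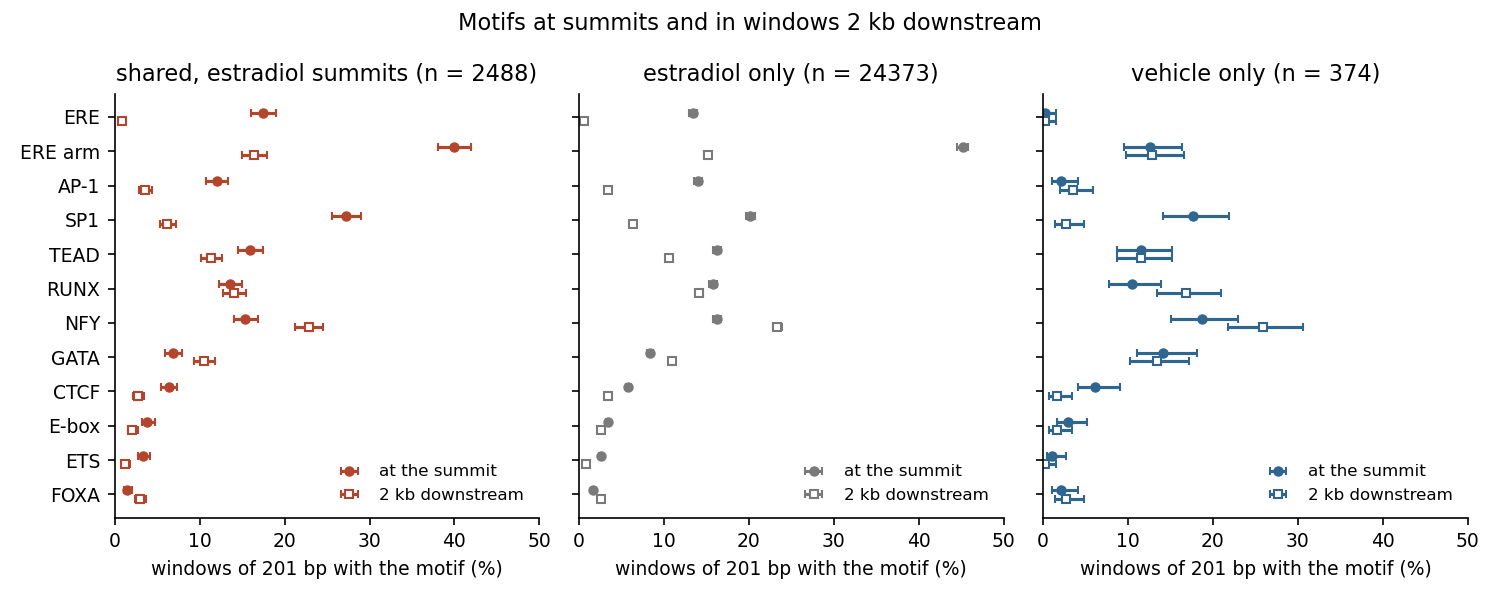
Percent of 201-bp windows with each motif (horizontal axis) for shared estradiol summits (left), estradiol-only summits (middle) and vehicle-only summits (right). Filled circles are summits, open squares are windows 2 kb downstream, and bars are 95% Wilson intervals. The ERE, its single arm and AP-1 lie far to the right of their downstream windows in the left and middle panels and not in the right panel.

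Genes near the regions were counted where a summit lay within 20 kb of any TSS of a protein-coding transcript. With estradiol this was so for 10856 of 19618 protein-coding genes (55.3%), with vehicle for 2305 (11.7%), and for a vehicle-only region for 287 (1.46%). These shares are the background for the gene lists that follow. Where 2 folds are given for a gene of a list, they belong to its strongest region in each list, which need not be the same site. The regions did not overlap at KRT13, LTBP3, FOSL1, AJUBA, VIM, LAMA5, RGS3, HDAC5, EZH2 and JARID2. Of the genes with a vehicle region, 96.4% also had an estradiol region, and 73.4% had an estradiol-only region besides. Over all protein-coding genes these shares were 55.3% and 52.6%. A vehicle region and no estradiol region was found at 82 genes (0.418%). Of all protein-coding genes, 5437 (27.7%) had 2 or more estradiol-only regions, 780 (3.98%) had 5 or more and 45 (0.229%) had 10 or more.

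Among the genes with the most estradiol-only summits within 20 kb were PRKAG2 with 17, TNS3 with 16, and ANKRD11 and MYO18A with 15. PRKAG2 encodes a regulatory subunit of AMP-activated kinase, TNS3 an adhesion protein of the tensin family and ANKRD11 a chromatin regulator. HPCAL1 and SMAD3 had 14, and ACTG1, CIRBP and DGKZ had 12. SMAD3 carries TGF-beta signals to the nucleus. Their highest folds ran from 18.0 at ANKRD11 to 103 at DGKZ, a diacylglycerol kinase gene. These genes have 7 to 22 coding transcripts each, and a gene with many start sites has more sequence within reach, so the counts are not a measure per base.

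Estrogen response genes were near estradiol regions in 19 of 26 cases (73.1%, 53.9 to 86.3; background 55.3%) and near vehicle regions in 7 (26.9%, 13.7 to 46.1; background 11.7%). No member had a vehicle-only region. The highest estradiol folds were at IGFBP4, at RARA, a retinoic acid receptor gene (180.0 with estradiol and 28.8 with vehicle for the strongest region in each list), at CTSD, the cathepsin D gene (164 and 19.6), and at PDZK1, a scaffold protein gene (130.4 and 14.3). KRT13, a keratin gene, had 122 and 39.3, and GREB1, an estrogen receptor cofactor gene, had 105 and 41.1, with 9 estradiol and 4 vehicle regions. CCND1, the cyclin D1 gene, had 8 estradiol and 2 vehicle regions, with 76.4 and 10.4. The remaining 12 had estradiol-only regions, among them HSPB8 (76.4), NRIP1 (74.0), RET (72.0), CCN5 (65.5), TFF1 (45.6), MYC (30.5) and SIAH2 (5.50).

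Coregulators of nuclear receptors had the highest share among the lists with a pathway name. Of 20 genes, 19 (95%, 76.4 to 99.1) had an estradiol region and 8 (40%, 21.9 to 61.3) had a vehicle region. High folds were found at PELP1, a scaffold that links receptors to kinases (157 and 7.83), at NCOA1, a p160 coactivator (112 at its promoter, and 8.54) and at the methyltransferase gene CARM1 (82.8 and 11.7). NCOA2 had 61.4 and 7.33, while weak regions at NCOR1 and NCOA5 had 6.70 and 8.47 with estradiol and 4.34 and 5.92 with vehicle. TRERF1 also had a vehicle region. Of 46 nuclear receptor genes, 26 (56.5%) had an estradiol and 7 (15.2%) a vehicle region, close to the background. Besides RARA and ESR2, vehicle regions were near ESRRA, NR1D1, NR1H3, NR2F6 and NR4A3, where the strongest estradiol folds were 83.4, 56.0, 45.7, 79.1 and 39.7.

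Members of the TGF-beta pathway were near estradiol regions in 20 of 26 cases (76.9%, 57.9 to 89.0) and near vehicle regions in 5 (19.2%, 8.51 to 37.9). Among the signal carriers, SMAD3 had 16 estradiol and 3 vehicle regions, with a highest fold of 134 against 8.48, and SMAD5 had a weak promoter region with 8.04 and 5.73. Among the inhibitors, PMEPA1 had 11 estradiol and 2 vehicle regions (112 and 15.0), BAMBI had an estradiol-only region with 78.5, SKIL had 52.7 and 6.50, and SMAD7 had 4 estradiol-only regions with up to 18.3. LTBP3, a latency protein of the ligand, had 10 estradiol regions (30.7) and 1 vehicle region (4.40). The ligand gene TGFB1 had 1 estradiol region with a fold of 4.50. In the related activin and BMP list 13 of 24 (54.2%) had an estradiol and 6 (25.0%) a vehicle region. They were led by BMP1, a procollagen protease (162 and 32.6), and FST, the activin antagonist follistatin (145 and 6.22). NOG, FSTL3, BMPR2 and BMPR1A were the others with a vehicle region.

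Cystatins, secreted inhibitors of cysteine proteases, were near estradiol regions in 7 of 13 cases (53.8%, 29.1 to 76.8) and near vehicle regions in 4 (30.8%, 12.7 to 57.6). The members with both were CST5 (148 and 18.6), CST3 (132 and 15.5), CST1 (113 and 7.92) and CST4 (87.4 and 6.86). CST2 had estradiol-only regions with up to 42.6. CST1, CST2, CST3, CST4 and CST5 all lie on chromosome 20, and the strongest estradiol region of each was a different one.

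The list of FOS, JUN and ATF family genes, whose products bind AP-1 and related elements, had estradiol regions at 15 of 18 (83.3%, 60.8 to 94.2) and vehicle regions at 6 (33.3%, 16.3 to 56.3). JUND had 137 and 18.9 at its promoter, and MAFK had 68.6 and 6.24. JUNB had estradiol-only regions with up to 78.2 and BATF2 with 93.6, while FOS and JUN themselves had 6.70 and 6.25. FOSL1 had 11 estradiol and 3 vehicle regions with highest folds of 20.7 and 5.54. MAFG, ATF3 and ATF2 were the others with a vehicle region.

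In the Hippo pathway, the growth-restraining kinase cascade that acts on YAP1, 18 of 23 genes (78.3%, 58.1 to 90.3) had an estradiol and 4 (17.4%) a vehicle region. The YAP target CCN1 had 170.2 and 30.4, and the DNA-binding partner TEAD3 had 73.5 and 16.2. YAP1 and WWTR1 had estradiol-only regions with 11.5 and 12.6. STK4 had a vehicle region with 5.95 and no estradiol region, and AJUBA had 42.0 and 5.72. Genes of epithelial to mesenchymal transition and adhesion had estradiol regions in 12 of 20 cases (60%) and vehicle regions in 4 (20.0%). CDH3, the P-cadherin gene, had 151 and 17.3. The repressor genes SNAI2 and SNAI1 had 67.7 and 60 with estradiol and 8.85 and 6.53 with vehicle, and VIM, the vimentin gene, had 12.6 and 8.61. CDH1, the E-cadherin gene, had estradiol-only regions with up to 27.8.

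Cell cycle genes were near estradiol regions in 16 of 26 cases (61.5%, 42.5 to 77.6) and near vehicle regions in 6 (23.1%, 11 to 42.1). The inhibitor genes CDKN1B and CDKN1A had 71.5 and 31.2 with estradiol and 6.22 and 5.22 with vehicle. E2F1 had 34.2 and 5.85. The region within 20 kb of CDK4 with a fold of 106 was estradiol only and lay 15.5 kb away, in a promoter. CCND3, CCND1 and E2F3 were the others with a vehicle region. NF-kB genes had estradiol regions in 16 of 24 cases (66.7%) and vehicle regions in 2 (8.33%). Both of these encode inhibitors, NFKBIA (70.2 and 13.4) and NFKBIE (46.7 and 4.83). The subunit gene RELA had an estradiol-only region with 36.1 that lay 19.6 kb away.

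Among genes of the matrix and its receptors, laminin chains had estradiol regions at 7 of 12 (58.3%) and vehicle regions at 2, LAMC1 (174 and 40.4) and LAMA5 (110 and 28.9). Integrins had estradiol regions at 20 of 26 (76.9%, 57.9 to 89.0) and vehicle regions at 2 (7.69%, 2.14 to 24.1), ITGB5 (77.3 and 8.24) and ITGB2 (64.9 and 5.49). ITGAE had an estradiol-only region with 77.5 and ITGA3 had 8 with up to 39.1. G-protein signalling regulators had 10 of 21 (47.6%) and 3 (14.3%), those with both being RGS10 (174 and 23.8), RGS6 (104 and 10.1) and RGS3 (96.2 and 7.93). RGS19 had 8 estradiol-only regions, the strongest being the OPRL1 one with 123.

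Among chromatin genes, histone deacetylases had estradiol regions at 12 of 18 (66.7%) and vehicle regions at 5 (27.8%), with HDAC7 described above. HDAC4 had an estradiol-only region with 80.5. HDAC11, SIRT5 and SIRT7 had 45.1, 45.6 and 46.5 with estradiol and 8.61, 6.88 and 12.9 with vehicle, and HDAC5 had 5.95 and 5.35. Polycomb complex 2 and H3K27 demethylase genes had 10 of 13 (76.9%) and 2 (15.4%), and their folds were low apart from EED (43.5, estradiol only). EZH2, the methyltransferase of the complex, had 8.05 and 5.28, and JARID2 had 9.81 and 5.45. The 2 lists kept as a contrast behaved differently from each other. Cytosolic ribosomal protein genes had estradiol regions at 63 of 81 (77.8%, 67.6 to 85.5) and vehicle regions at 14 (17.3%), with a median highest fold of 7.59 per gene. Olfactory receptor genes had them at 27 of 381 (7.09%, 4.92 to 10.1) and 6 (1.57%). No list was tested against another.

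**Figure D5:**
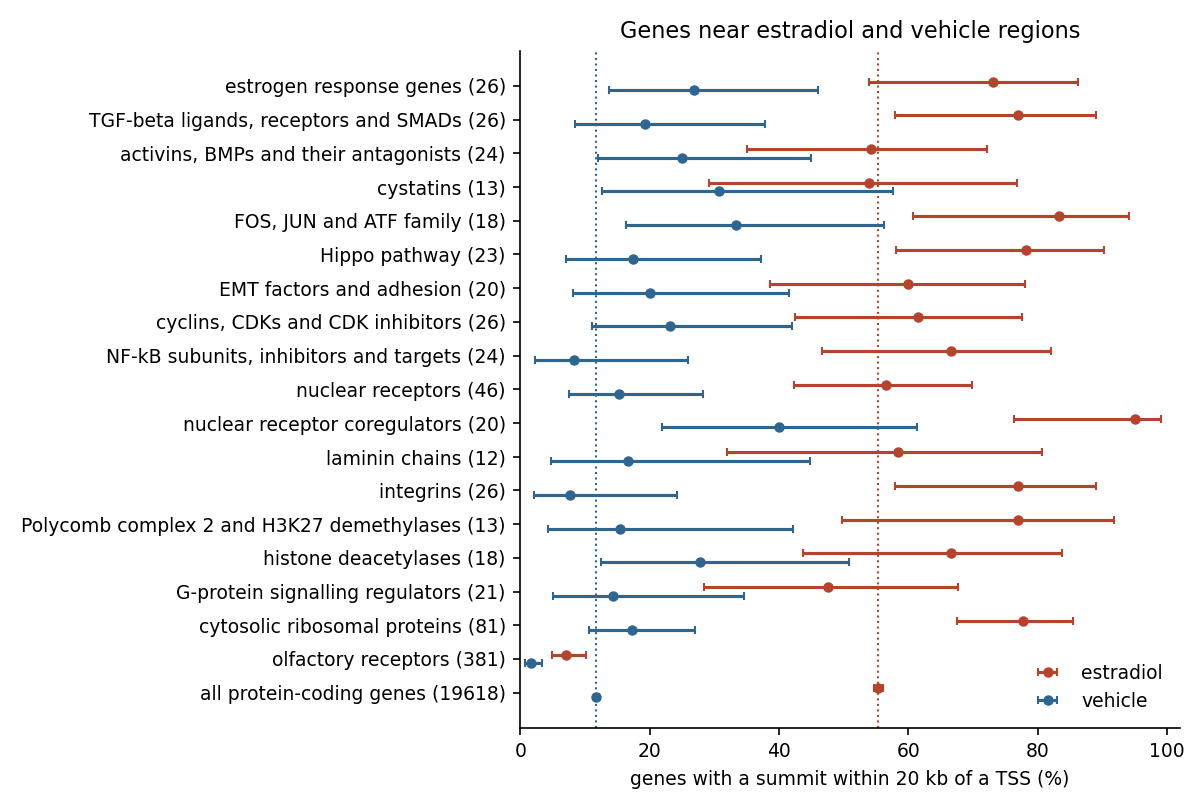
Percent of the genes of each list with a summit within 20 kb of a TSS (horizontal axis), for estradiol (red) and vehicle (blue), with 95% Wilson intervals and the number of genes in brackets. Dotted lines mark all protein-coding genes, at 55.3% and 11.7%. Coregulators reach 95% and 40%, and olfactory receptors lie below both lines.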

How the data were processed

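Enriched regions came from the narrowPeak lists that the authors deposited, 1 for the estradiol and 1 for the ethanol pool. Per the submitters' processing notes, Bowtie2 2.2.6, MACS2 2.1.1.20160309, DiffBind and hg38 were used, with no step or order given. The protocol speaks of triplicates while the labels list 4 precipitated libraries per treatment, so how many entered a pool is uncertain. The deposited fold is the authors' ratio over local background at the summit, and the deposited −log10 p and −log10 q are those of their caller. The authors' score (the whole part of 10 times −log10 q) was not used. Depth is unknown, and the lowest deposited −log10 q was 2.15 for estradiol and 2.02 for vehicle. The number of regions in a class limits the precision of its shares.

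From 26896 estradiol and 2911 vehicle records, 35 and 9 on other sequences were left out. The background pileup was the value that, with a pseudocount of 1 and a Poisson tail, gave the deposited fold and p of the most records (15.0% of estradiol and 18.7% of vehicle regions). Genes came from GENCODE 44. Scripts used Python 3.11.15, numpy 2.4.6, pandas 2.3.3, scipy 1.17.1, pysam 0.24.0 and matplotlib 3.10.9 and were tested on simulated data. Summits were placed, in this order, in a promoter, coding exon, UTR, intron, non-coding gene or intergenic DNA.

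The regions named were the 12 with the highest fold in each class (for shared regions, by estradiol and by vehicle fold), the 8 pairs with the widest gap of percentile in each direction, the 10 genes with the most estradiol-only summits, and of the 18 gene lists up to 4 members with the highest estradiol fold and those with a vehicle region. Some regions and genes that this rule picks are not reported here. Further list members were named after their values were seen. Comparison, members and lists were chosen with earlier results of these data known. Alternatives covered the overlap, the q threshold, the list length, the motif, the promoter and the gene distance, and leaving out ESR2 and HDAC7 was added after seeing the data.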

Additional observations from a re-analysis of the deposited data

How the results depend on the processing

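The rule for overlap changed the shared part. With 50% of both regions covered, 4.79% of estradiol and 44.3% of vehicle regions were shared; with summits within 200 bp, 8.64% and 79.9%; and with regions within 500 bp, 10.6% and 88.6%. Among the strongest estradiol regions, as many as the vehicle list holds, 47.1% were shared, and 48.3% of vehicle regions met one of them. At −log10 q of at least 5 it was 8.73% of estradiol regions. The rank correlation was 0.746 by −log10 q and 0.655 (2236 pairs) at −log10 q of at least 5.

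Over whole classes, the order of ERE shares (shared, estradiol only, vehicle only) was kept under each alternative. In the weaker deciles of estradiol fold, shared regions lay below estradiol-only ones, as given above. Without a mismatch the shares over whole classes were 2.77%, 1.54% and 0%. With at most 2 mismatches they were 45.9%, 44.4% and 5.61%, so shared and estradiol-only regions were then close. Within 50 bp of the summit estradiol-only regions had 11.9% and vehicle-only regions 0%, and at −log10 q of at least 5 estradiol-only regions had 14.2%. Promoter shares in the same order were 44.3%, 32.8% and 33.2% within 2500 bp of a TSS and 31.1%, 24.2% and 26.7% with the TSSs of all gene types. Vehicle-only regions then lay above estradiol-only ones, but no intervals were computed for these alternatives. In the main setting the vehicle-only interval (11.7 to 18.9) held the estradiol-only share of 16.1%, so the order of these classes is not settled. At −log10 q of at least 5 the promoter shares were 14.7% for estradiol-only and 9.66% for vehicle-only regions. Within 5 kb 1443 genes had a vehicle and 168 a vehicle-only region, and within 100 kb 5876 and 855. These causes were not tested beyond what each alternative changes by construction. Of 44 alternatives, 32 moved a value beyond its counting interval or a count by over 1.5 times, and 12 did not.

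No paired analysis was possible because each treatment is 1 pooled list. The depth of the pools is unknown, so a region missing from a list was not detectable there at its depth and threshold and is not shown to be absent.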
